A study of Homo sapiens with 7 samples.

Results

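Of the 16485 Rb peaks called in palbociclib-treated ZR-75-1 cells on chromosomes 1 to 22 and X, 2979 were called in a single library and overlapped no peak of untreated cells. Each was chosen by its call: a peak of either palbociclib list that overlapped no peak of the other palbociclib list by even 1 bp, and no peak of either DMSO list. They are named single-library peaks here. Replicate 1 gave 1587 of its 8314 peaks (19.1%, 95% exact binomial interval 18.2 to 19.9) and replicate 2 gave 1392 of its 8171 (17.0%, 16.2 to 17.9), a mean of 18.1% ± 1.45 (SD, n = 2). They were compared with both-library peaks, which overlapped a peak of the other palbociclib library and no DMSO peak, 5600 in replicate 1 and 5655 in replicate 2. Nearly all remaining palbociclib peaks, 1125 and 1121, were called in both libraries and overlapped a DMSO peak, while 2 and 3 were called in a single palbociclib library and overlapped a DMSO peak. Binomial intervals cover counting error alone. The both-library peaks of the 2 libraries are largely the same sites, so their small SD over libraries follows from the choice.

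ZR-75-1 is an oestrogen receptor-positive breast cancer line. Parental cells were treated with 500 nM palbociclib or with DMSO for 4 days and profiled by CUT&RUN with an Rb antibody, 2 libraries for each treatment. RB1 KO cells gave 1 Rb library with each treatment, and parental cells with palbociclib gave 1 IgG2a library. By the study's methods the replicates were separate cultures of 1 cell line, each with its own profiling reaction. The lists hold no read totals. The lowest local background of a list was similar, 0.516 fragments in replicate 1 and 0.549 in replicate 2. That value alone does not give the depth, so a difference in depth was not tested. In these bulk libraries, fewer cells with Rb at a site and less Rb per cell cannot be told apart.

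Rb is the retinoblastoma tumour suppressor. When the kinases CDK4 and CDK6 are inhibited it stays hypophosphorylated and binds E2F factors, and through them the promoters of genes for DNA replication and cell division. The related pocket proteins p107 and p130 act in the DREAM complex, which reaches many G2 and mitotic promoters through a CHR element, often next to CCAAT boxes bound by NF-Y. A peak caller reports a site when the fragments over it exceed the local background by more than a set threshold.

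Sequences of the summit with 100 bp on either side are shown for 8 members, to let the kinds of site be seen. They are read 5′ to 3′ on the plus strand of hg38, with capitals for every match to the motifs searched. First come the promoter member of highest fold enrichment in each library, among those whose window held no UTR. They lie at the divergent ZBTB1/ZBTB25 promoter (replicate 1) and at PRKCE (replicate 2). The PRKCE window was GC-rich at 78.1% and held 31 CpG, 2 GC boxes and 1 NRF1 core, and the ZBTB1/ZBTB25 window held 18 CpG and none of the motifs.
ZBTB1/ZBTB25, chr14:64505281-64505481: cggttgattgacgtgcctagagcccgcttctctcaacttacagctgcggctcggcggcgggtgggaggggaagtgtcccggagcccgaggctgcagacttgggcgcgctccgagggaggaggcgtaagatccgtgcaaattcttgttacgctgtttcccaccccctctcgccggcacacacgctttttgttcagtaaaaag
PRKCE, chr2:45651113-45651313: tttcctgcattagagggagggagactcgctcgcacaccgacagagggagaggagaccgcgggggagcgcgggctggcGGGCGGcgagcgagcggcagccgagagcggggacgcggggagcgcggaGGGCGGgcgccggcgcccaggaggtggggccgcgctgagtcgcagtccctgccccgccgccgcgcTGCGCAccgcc
The promoter members of highest fold with an E2F motif, under the same conditions, were at ANKS1A/TAF11 in replicate 1 and at ANXA2R in replicate 2. In the first the E2F motif runs into a CCAAT box read on the minus strand.
ANKS1A/TAF11, chr6:34888137-34888337: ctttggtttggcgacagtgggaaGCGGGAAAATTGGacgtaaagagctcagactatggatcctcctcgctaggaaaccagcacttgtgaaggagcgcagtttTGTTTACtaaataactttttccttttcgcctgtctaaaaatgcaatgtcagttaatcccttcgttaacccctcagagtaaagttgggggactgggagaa
ANXA2R, chr5:43039520-43039720: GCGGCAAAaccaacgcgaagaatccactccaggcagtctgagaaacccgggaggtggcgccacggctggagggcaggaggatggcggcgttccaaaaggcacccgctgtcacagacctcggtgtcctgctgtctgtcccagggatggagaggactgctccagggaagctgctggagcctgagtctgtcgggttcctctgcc
Next are the non-promoter members of highest fold under the same conditions. The replicate 1 window lies 30988 bp upstream of the SMAD6 start and holds 4 GC boxes in a cytosine-rich stretch with 6 CpG. The replicate 2 window lies 36099 bp downstream of the CHST14 start and holds 1 GC box and 15 CpG.
Upstream of SMAD6, chr15:66671148-66671348: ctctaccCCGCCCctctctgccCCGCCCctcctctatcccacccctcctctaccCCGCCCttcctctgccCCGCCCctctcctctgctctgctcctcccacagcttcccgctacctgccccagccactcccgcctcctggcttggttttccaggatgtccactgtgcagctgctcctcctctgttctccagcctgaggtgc
Downstream of CHST14, chr15:40507085-40507285: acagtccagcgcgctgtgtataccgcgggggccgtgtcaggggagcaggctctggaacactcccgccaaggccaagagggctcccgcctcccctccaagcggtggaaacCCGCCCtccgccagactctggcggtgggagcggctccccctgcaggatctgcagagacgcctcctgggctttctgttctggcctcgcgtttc
The last pair is from CDC20, where each library called a peak that the other lacked. The replicate 1 window is centred 396 bp upstream of the start and holds none of the motifs. The replicate 2 window is centred 136 bp upstream and holds 2 CCAAT boxes, 2 CHR cores and 1 GC box.
CDC20 replicate 1, chr1:43358485-43358685: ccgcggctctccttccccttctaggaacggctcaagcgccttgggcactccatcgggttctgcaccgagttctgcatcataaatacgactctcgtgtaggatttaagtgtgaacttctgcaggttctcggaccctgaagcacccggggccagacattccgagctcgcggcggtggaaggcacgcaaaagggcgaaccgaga
CDC20 replicate 2, chr1:43358745-43358945: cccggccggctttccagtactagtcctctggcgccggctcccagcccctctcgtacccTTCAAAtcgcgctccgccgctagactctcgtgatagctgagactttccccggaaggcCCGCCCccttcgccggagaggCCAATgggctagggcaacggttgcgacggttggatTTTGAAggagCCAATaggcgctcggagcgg

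Single-library peaks were the weak and narrow end of each list. These values belong to the calls that the choice used, so they are given with no test. Fold enrichment, the authors' ratio of summit pileup to local background, had a median of 4.61 in replicate 1 and 4.54 in replicate 2, against 7.21 and 7.02 for both-library peaks. The median width was 226 and 219 bp against 479 and 459 bp. The summit of a typical member stood on few fragments: the median pileup was 10 in each library, against 17. The lowest called pileup was 5 fragments. Members reached a maximum fold of 13.3 in replicate 1 and 10.3 in replicate 2, while both-library peaks reached 35.6 and 37.6.

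The share of peaks called in a single library fell with fold. At a fold of 3 to 4 it was 55.4% (95% exact binomial interval 51.5 to 59.2) of the replicate 1 peaks without a DMSO peak and 47.5% (44.0 to 51.0) of those in replicate 2. At 6 to 7 the share was 13.4% and 10.4%. From 8 to 10 it was 3.07% and 3.06%. At 10 to 15 there were 3 members in replicate 1 and 2 in replicate 2. At 15 or above there were 0 of 384 and 0 of 368, which allow shares of up to 0.781% and 0.815% at a limit of 3 counts, and of up to 0.956% and 0.997% by the exact binomial interval. The plot of single-library share by fold shows the same course in both libraries. Below a fold of 3 the bins held 39 and 24 peaks and the shares, with 15 and 6 members, have wide intervals.

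**Figure D1:**
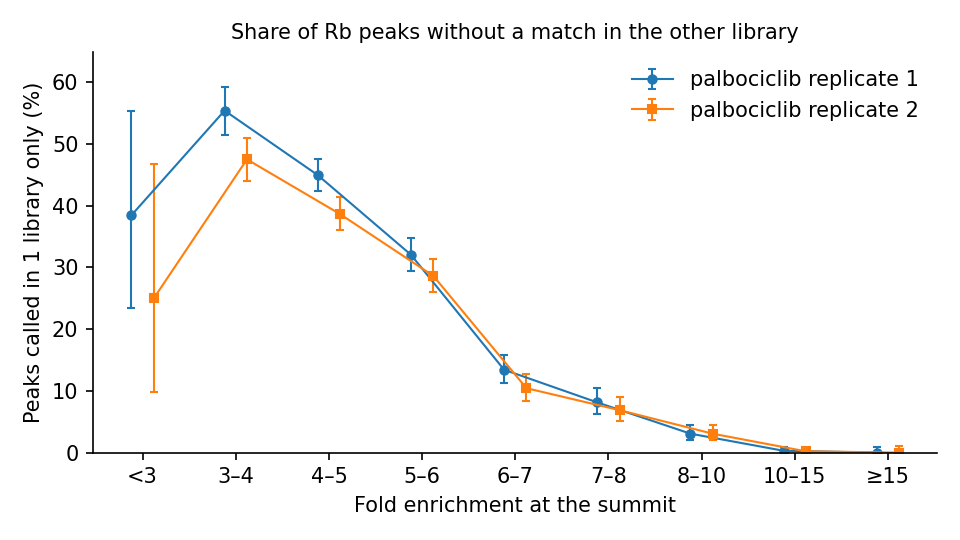
Share of peaks called in a single palbociclib library (y axis, %) by fold enrichment at the summit (x axis, bins), for replicate 1 (circles) and replicate 2 (squares), with 95% exact binomial intervals as bars. Peaks that overlapped a DMSO peak are left out; both lines fall from 55.4% and 47.5% at a fold of 3 to 4 to 0 at 15 or above.

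Strong members were few but present in both libraries. Of the members, 75 in replicate 1 and 72 in replicate 2 exceeded the median fold of both-library peaks of their own library. A −log10 q of 10 or more was reached by 43 and 39 members. Of these 82 peaks, 70 were promoter peaks and 72 lay more than 2000 bp from any peak of the other library. None of the 82 overlapped an IgG2a or RB1 KO peak, and 2 had at least 50% of their 31-base words repeated in the genome. By the methods the calls already used matched IgG as control, and the RB1 KO lists held only 4 and 5 peaks. Few overlaps were thus possible, so their absence is no test of background. For scale, the 5527 pairs of both-library peaks had an SD of 0.436 in the log2 ratio of replicate 1 to replicate 2 fold, and the 979 pairs of mean fold under 5 had an SD of 0.408.

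The choice had an edge at 1 bp. In replicate 1, 38 members lay within 50 bp of a peak of the other library, with a median fold of 4.45, while 49 both-library peaks overlapped by less than 50 bp, with a median fold of 4.16. In replicate 2 the numbers were 36 members at 4.42 and 54 both-library peaks at 4.23. Several members lay just inside the edge, 1 bp from a peak of the other library, among them those at DFFA, an inhibitor of the apoptotic nuclease, and at WAC. The DFFA peaks had folds of 3.4 (replicate 1) and 5.37 (replicate 2) and the WAC peaks 4.59 and 5.39. Just outside were peaks at RAB35, overlapping by 1 bp at folds of 2.74 and 2.90 and at OSBPL8, by 1 bp at 3.39 in replicate 2 against 8.15 in replicate 1.

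A minority of members lay beside other Rb peaks. A peak called in both libraries, DMSO-overlapping ones included, lay within 2000 bp of 14.5% ± 0.159 of members (SD, n = 2). Such a peak lay within 500 bp of 8.78% ± 0.481 and within 10000 bp of 22.2% ± 0.966. Any peak of the other library, members included, lay within 500 bp of 14.5% ± 0.961 of members and within 2000 bp of 21.6% ± 0.484. Most members thus had no peak of the other library within 2000 bp. Among the 6644 joined regions called in both libraries, 469 (7.06%) had another such region within 2000 bp.

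Most members were promoter peaks, although fewer than among both-library peaks. Promoters were counted from 2000 bp before to 500 bp after the start of any protein-coding transcript. The promoter share was 71.8% (95% exact binomial interval 69.6 to 74.0) of members in replicate 1 and 69.9% (67.4 to 72.3) in replicate 2, against 88.4% and 88.6% of both-library peaks. The difference was −16.6 and −18.7 percentage points, a mean of −17.7 ± 1.5 (SD, n = 2). Classes were compared within each library by an exact paired permutation test, two-sided, whose smallest possible p with 2 libraries is 0.5, so no difference reported here can pass a threshold. The promoter share gave an exact permutation p = 0.5, as did every other class difference with the same sign in both libraries.

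What the members lacked at promoters they had in introns of protein-coding genes and between such genes. Introns held 10.7% ± 0.146 of members and 2.96% ± 0.0330 of both-library peaks (SD, n = 2). Intergenic sequence, here all sequence outside protein-coding genes and their promoters, held 14.8% ± 0.756 and 6.13% ± 0.0675. Exons held 2.31% ± 0.498 and 1.49% ± 0.0606. Counting the starts of all annotated genes, non-coding ones included, raised the promoter share. It was then 81.3% ± 1.16 of members and 94.8% ± 0.0862 of both-library peaks. Of the non-promoter peaks, 36.0% ± 0.967 of members and 54.6% ± 0.239 of both-library peaks lay at such added promoters. In the bars of genomic annotation, members of the libraries, which share no site, resembled each other more than they resembled both-library peaks.

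**Figure D2:**
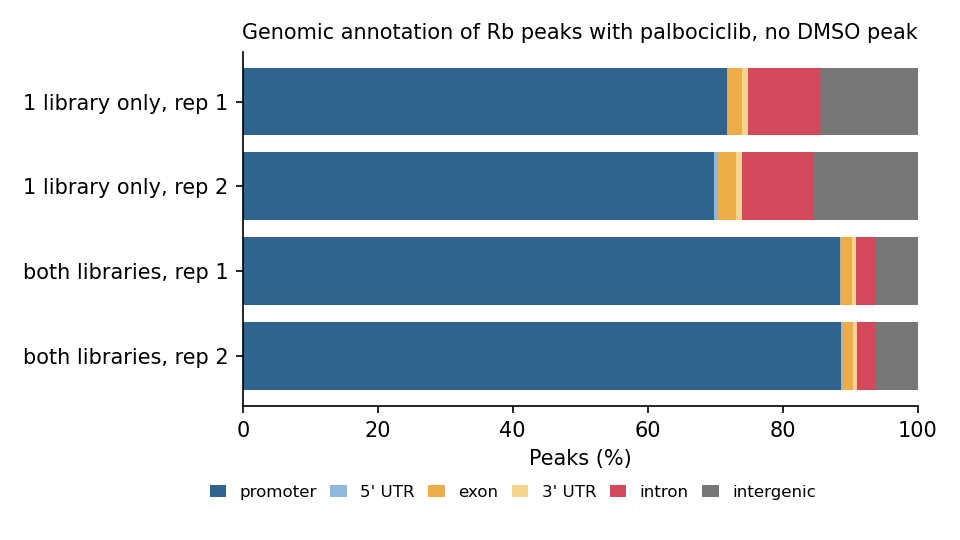
Genomic annotation of single-library peaks (top 2 bars) and both-library peaks (bottom 2 bars) as a share of peaks (x axis, %), 1 bar for each palbociclib library. Promoters held 71.8% and 69.9% of single-library peaks against 88.4% and 88.6% of both-library peaks.

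The lower promoter share was also seen at equal fold. Between a fold of 4 and 5, 71.3% of replicate 1 members and 67.1% of replicate 2 members were at promoters, against 85.8% and 85.5% of both-library peaks. With the both-library peaks weighted to the fold distribution of the members, the difference was −14.2 points in replicate 1 and −17.1 in replicate 2, a mean of −15.6 ± 2.05 (SD, n = 2). It was −8.94 points with members alone limited to a −log10 q of at least 5. With both lists cut it was −8.67 at a fold of at least 5 and −6.50 at a −log10 q of at least 5. Cut lists also count peaks matched only below the cut as single-library, so they mix in peaks that both libraries called. The difference was −9.93 points when a 50% reciprocal overlap was required, which also counts partly overlapping pairs as single-library. The plot of promoter share by fold shows it narrowing in replicate 1, where at a fold of 8 to 10 the members stood at 92.9% against 90.4%, from 28 members. In replicate 2 the 27 members of that bin stood at 77.8% against 90.8%.

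**Figure D3:**
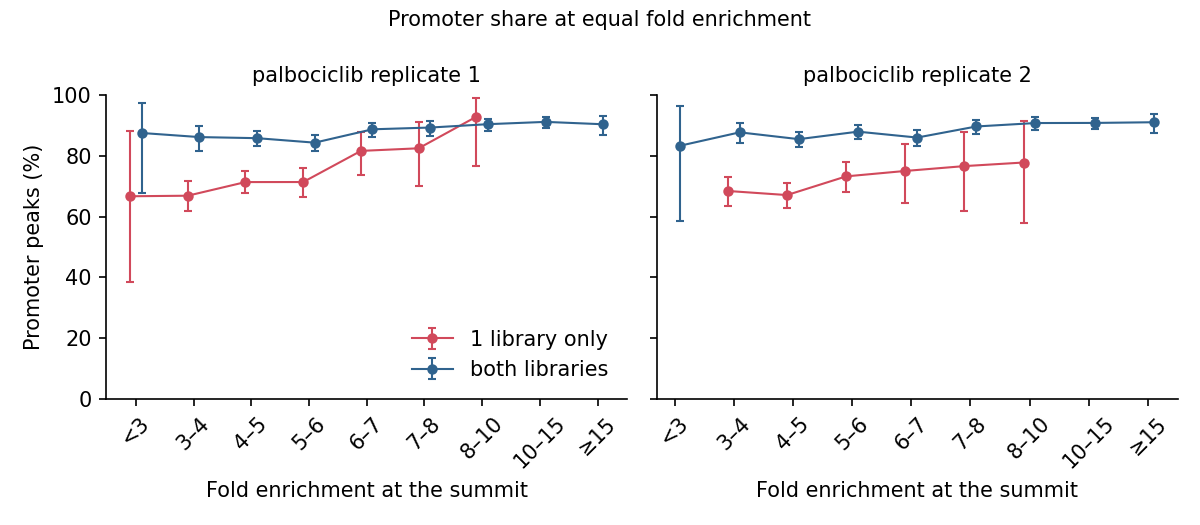
Share of promoter peaks (y axis, %) among single-library (red) and both-library (blue) peaks by fold enrichment at the summit (x axis, bins), 1 panel for each palbociclib library, with 95% exact binomial intervals. Bins with under 15 peaks are not drawn; red lies below blue up to a fold of 8, and above it in replicate 1 at 8 to 10 (92.9% against 90.4%).

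Within promoters the members sat less tightly on the start site. The summit lay within 250 bp of a protein-coding start in 76.1% ± 1.35 of promoter members and 84.7% ± 0.0424 of both-library promoter peaks (SD, n = 2). It lay upstream of the nearest start in 45.5% ± 1.88 and 52.9% ± 0.159. Promoters of 2 or more genes, such as divergent pairs, held 14.0% of promoter members and 17.2% of both-library promoter peaks. Outside promoters, 29.3% ± 2.48 of members and 19.1% ± 0.0257 of both-library peaks had their summit over 50000 bp from every protein-coding start.

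Members were poorer in CpG, chiefly outside promoters. Within 100 bp of the summit the GC content averaged 66.9% ± 0.116 for members and 70.4% ± 0.0113 for both-library peaks, a difference of −3.43 ± 0.105 points (SD, n = 2). The ratio of observed to expected CpG averaged 0.744 ± 0.00492 and 0.865 ± 0.00113, a difference of −0.121 ± 0.00605. Among promoter peaks the CpG ratio was 0.832 ± 0.00295 for members and 0.877 ± 0.00105 for both-library peaks. Among non-promoter peaks it was 0.532 ± 0.00434 and 0.778 ± 0.000684, and GC content was 61.2% ± 0.00289 and 69.2% ± 0.123. The plot of base composition shows the wide spread of non-promoter members beside the narrow CpG-rich range of the other classes. With both-library peaks weighted to the fold of the members, the CpG ratio difference was −0.110 ± 0.00840. Both composition differences were smaller under stricter settings. Where both lists were cut, peaks matched only below the cut also counted as single-library. With both lists at a −log10 q of at least 5 they were −0.473 points of GC and −0.0353 in CpG ratio, and with members alone at that level −1.25 points and −0.0484. With both lists at a fold of at least 5 they were −1.28 points and −0.0501. A 50% reciprocal overlap gave −2.29 points and −0.0774.

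**Figure D4:**
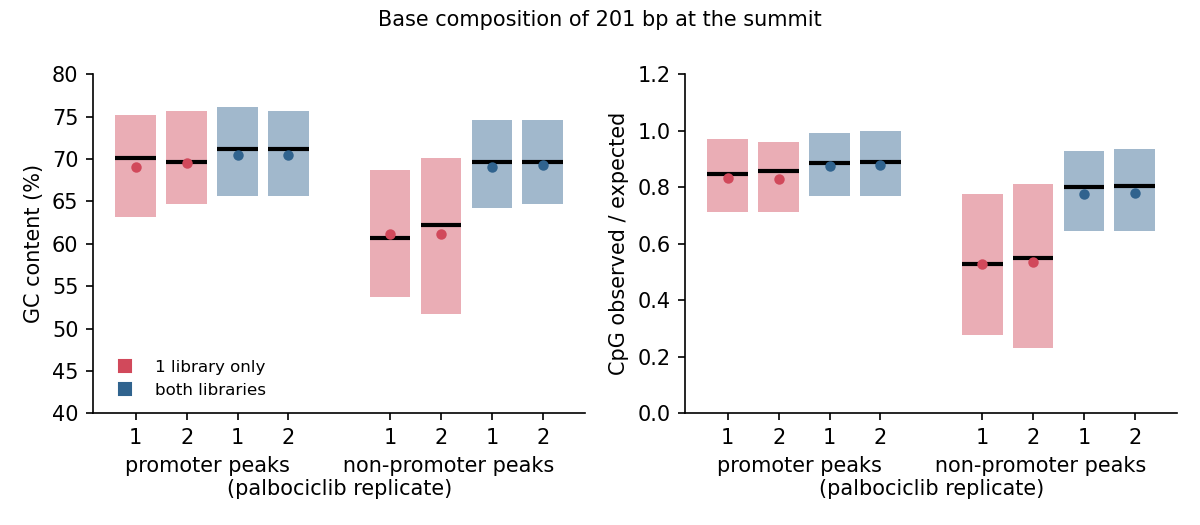
GC content (left y axis, %) and observed over expected CpG (right y axis, a ratio) within 100 bp of the summit, for promoter and non-promoter peaks of each palbociclib library (x axis), single-library in red and both-library in blue. Boxes span the lower to the upper quartile over peaks, lines are medians and points are means; the mean CpG ratio of non-promoter single-library peaks, 0.529 and 0.535, is the lowest.

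A window was counted as CpG-rich when its CpG ratio was at least 0.6 and its GC content at least 50%, thresholds commonly used for CpG islands. Of all members 74.1% ± 0.165 passed, against 91.7% ± 0.208 of both-library peaks (SD, n = 2). Among promoter peaks 86.7% ± 0.890 and 93.3% ± 0.141 passed. Among non-promoter peaks 43.5% ± 3.62 and 79.4% ± 0.567 passed. So CpG-rich windows made up most promoter members and less than 50% of the others.

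Repeated sequence was also more frequent outside promoters. Windows with at least 50% of their 31-base words present elsewhere in the genome made up 4.33% ± 0.0689 of members and 1.59% ± 0.0989 of both-library peaks. Among non-promoter peaks the shares were 11.6% ± 0.202 and 6.82% ± 0.409 (SD, n = 2). Reads of such windows can align to several places, and the part of this in single calls was not tested. Members were spread over every chromosome examined, and as a share of the members and both-library peaks of a chromosome they ran from 18.8% (chromosome 9) to 28.1% (chromosome 15) in replicate 1 and from 16.0% (chromosome 14) to 30.5% (chromosome 21) in replicate 2.

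Motif matches near the summit followed the same division. Matches were exact letters on either strand in that window, and are a description of sequence, not of binding. The GC box GGGCGG, bound by SP and KLF factors, was found in 53.4% ± 1.62 of members and 70.4% ± 0.644 of both-library peaks (SD, n = 2), and in 43.6% of the 78398 windows at protein-coding starts. At promoters the shares were 61.1% ± 2.08 and 70.3% ± 0.688, and outside them 34.6% ± 1.74 and 70.7% ± 0.310. The CCAAT box of NF-Y was found in 17.5% ± 0.669 of members and 23.5% ± 0.365 of both-library peaks, beside 23.2% of start windows. The NRF1 core TGCGCA was in 6.54% ± 0.202 and 8.37% ± 0.0929, beside 6.50%, and the E-box CACGTG in 4.70% ± 0.0399 and 5.99% ± 0.185, beside 5.16%. Neither letter string is specific to 1 factor.

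The E2F motif TTTNNCGC, in which each N is C or G, was found in 53 of 1587 members in replicate 1 and 41 of 1392 in replicate 2, a mean of 3.14% ± 0.279, against 4.77% ± 0.206 of both-library peaks and 2.44% of start windows. The difference was −1.63 ± 0.485 points (SD, n = 2). Against both-library peaks weighted to the same fold it was 0.126 points in replicate 1 and −0.797 in replicate 2, a mean of −0.335 ± 0.653, smaller than the spread between libraries and with opposite signs (exact paired permutation test, p = 1). In that weighting the motif was in 3.34% of members and 3.21% of both-library peaks of replicate 1, and in 2.95% and 3.74% in replicate 2. Among the other motifs, the ETS motif CCGGAAGT was in 2.31% ± 0.498 of members and 3.13% ± 0.129 of both-library peaks, beside 4.08% of start windows.

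A few motifs were more frequent among members taken as a whole. The AP-1 site TGANTCA, with N as C or G, was in 2.66% ± 0.104 of members and 1.74% ± 0.188 of both-library peaks, beside 3.75% of start windows. The forkhead motif TGTTTAC, bound by FOXA1 in luminal cells, was in 1.30% ± 0.117 and 0.826% ± 0.0822, beside 1.62%. Outside promoters the AP-1 difference was 0.797 points in replicate 1 and −0.174 in replicate 2, and the forkhead difference 0.399 and −0.0401, so both had opposite signs there. Outside promoters the CHR core TTTGAA, a short AT-rich string, was in 4.97% ± 0.0638 of members and 1.55% ± 0.226 of both-library peaks (SD, n = 2), beside 7.66% of start windows. At promoters its difference, −0.556 ± 0.893 points, had opposite signs in the libraries. The oestrogen response element, GGTCA and TGACC 3 bases apart with up to 1 mismatch, was in 0.553% ± 0.336 of members and 0.373% ± 0.0780 of both-library peaks, with opposite signs. The CRE TGACGTCA also had opposite signs, and the YY1 motif AAGATGGC was in 2.39% ± 0.0785 and 2.15% ± 0.0903. These shares move with base composition, and the motifs overlap other strings of like letters.

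Background libraries called few of the members. An IgG2a peak overlapped 15 of 1587 members in replicate 1 and 12 of 1392 in replicate 2, a mean of 0.904% ± 0.0588 against 1.16% ± 0.0457 of both-library peaks (SD, n = 2). An RB1 KO peak overlapped 1 member, in replicate 1, and 0 of 1392 in replicate 2, which allows up to 0.216% at a limit of 3 counts and 0.265% by the exact interval. That member covered chr11:61391322-61391799 (hg38), 1066 bp upstream of the start of TMEM216, a ciliary transition zone gene, at a fold of 5.71, and it also overlapped an IgG2a peak. The RB1 KO lists held 4 and 5 peaks in all, so they could overlap few. By the methods the Rb calls used matched IgG as control, so sites of high IgG signal were already less likely to be called. The DMSO libraries showed a larger share of single calls: 453 of 922 peaks (49.1%, 45.9 to 52.4) in replicate 1 and 273 of 753 (36.3%, 32.8 to 39.8) in replicate 2 overlapped no peak of the other DMSO library.

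The members touched many genes. Of 19626 protein-coding genes, 2236 had a single-library peak at the promoter, and 470 of these (21.0%) also had a peak called in both palbociclib libraries or with DMSO. The other 1766 genes, 9.0% of all, had no other Rb peak at the promoter, while 6671 (34.0%) had a both-library or DMSO peak. Among the 1766, 899 had a member of replicate 1 alone, 778 of replicate 2 alone, and 89 a member of each library. So for 89 genes both libraries placed a peak at a promoter of the gene and the peaks did not overlap. Starts of a gene were pooled, so the peaks can lie at separate starts.

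The promoter members of highest fold were mostly far from peaks of the other library. In replicate 1 these were WSB1, an ubiquitin ligase adaptor, at a fold of 11.5 from 19 fragments, ZBTB1/ZBTB25, a pair of zinc finger factors, at 10.1, OAZ1, the inhibitor of ornithine decarboxylase, at 9.65, ZMYND10, a factor for cilia assembly, at 9.62, and UBE2Q2, an ubiquitin-conjugating enzyme, at 9.47. The nearest replicate 2 peak was 747032 bp from WSB1 and 617 bp from ZBTB1/ZBTB25. In replicate 2 they were ZMAT1 at 10.3, PRKCE, protein kinase C epsilon, at 10.3 from 20 fragments, FADS2, a fatty acid desaturase, at 9.96, TBPL1, a TBP-like factor, at 9.83, and ATOSB at 9.42. The nearest replicate 1 peak was 149160 bp from PRKCE and 10908 bp from FADS2. Promoters of FADS2 also held another Rb peak, called in both palbociclib libraries or with DMSO, and so did those of ZBTB1/ZBTB25.

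The strongest member of all lay outside protein-coding genes. It covered chr15:66670959-66671331 (hg38), upstream of SMAD6, an inhibitory SMAD of BMP signalling, with a fold of 13.3, 34 fragments and a −log10 q of 29.4 in replicate 1. Replicate 2 had no peak within 29464 bp. The next non-promoter members of replicate 1 were an intronic peak 40530 bp from the HSP90AA1 start at a fold of 8.98 and an intergenic peak 39111 bp upstream of ARHGEF4 at 8.80. Those of replicate 2 were near CHST14 at 9.31, ZNF579 at 9.29 and TCFL5 at 9.20, each 188 to 224 bp wide.

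Gene lists are described by counts beside the 9.0% of all protein-coding genes that had single-library peaks only, and the lists were chosen with earlier results known. For genes of cell cycle entry and S phase, which hold the classical E2F targets, 1 of 70 had a single-library peak only (1.43%) and 67 had a both-library or DMSO peak. The exception was CCND1, cyclin D1, the partner of CDK4 and CDK6, with a replicate 1 member at a fold of 3.42. It lay 1868 bp upstream of the start on 19 fragments over a local background of 4.84 fragments, far above the median background of members, 1.11. A peak called in both palbociclib libraries lay 654 bp from this member, outside the promoter as counted here. Of 44 DNA repair genes, 1 had a single-library peak only, PALB2, the partner of BRCA2, at 4.56 in a promoter shared with DCTN5, and 42 had another peak.

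G2 and mitosis genes stood at 12 of 60 (20.0%), with 43 having a both-library or DMSO peak. Among genes with any Rb peak at the promoter, single-library peaks only made up 21.8% of this list, near the 20.9% over all protein-coding genes, and 1.47% of the S phase list. The plot of gene lists shows this list beside the S phase list. Those with a replicate 1 member alone were the kinesin KIF23, which bundles the central spindle, at a fold of 7.54, TPX2, the activator of Aurora A, at 5.79, KIF4A at 5.04, NDC80 of the outer kinetochore at 4.1, and the mitotic kinase PLK1 at 3.34. Those with a replicate 2 member alone were PTTG1, securin, at 8.39, HMMR, a spindle protein, at 6.37, RACGAP1, the partner of KIF23, at 5.88, the kinesin KIF18A at 5.84, and CENPA, the centromeric histone H3, at 5.16. The promoters of NDC80, KIF4A, PTTG1, HMMR and KIF18A were shared with a neighbouring gene.

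CDC20 and KIF15 had a member of each library. At CDC20, the activator of the anaphase-promoting complex, the replicate 1 peak had a fold of 4.62 on 6 fragments and the replicate 2 peak 9.04 on 13 fragments, and a gap of 73 bp separated them. At KIF15, a spindle kinesin, the folds were 5.59 and 3.61 and the gap was 24 bp. With members limited to a −log10 q of at least 5, 7 of the 60 genes had single-library peaks only (11.7%), beside 2.81% of all protein-coding genes. With gaps of up to 500 bp counted as overlap the number was 10. The NDC80 member overlapped an IgG2a peak, and without peaks in the IgG2a or RB1 KO lists the number was 11. These settings were chosen after the data were seen.

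**Figure D5:**
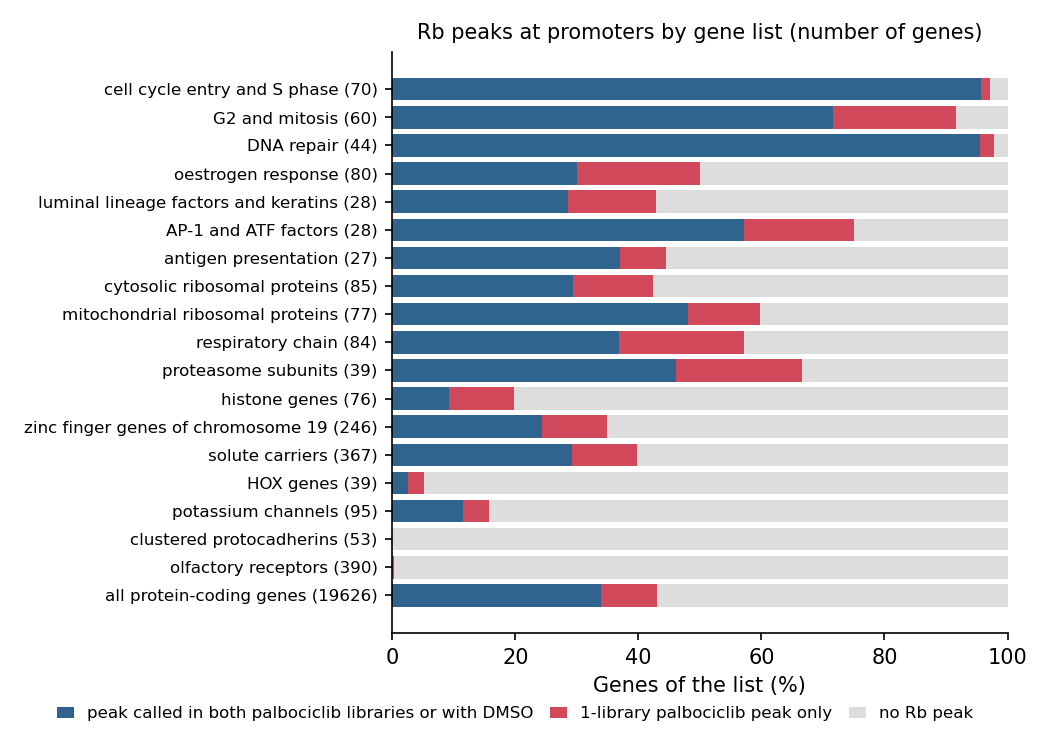
Share of the genes of each list (x axis, %) with a both-library or DMSO peak at the promoter (blue), a single-library palbociclib peak only (red) or no Rb peak (grey), with the number of genes in brackets. The red part is 20.0% for G2 and mitosis and 1.43% for cell cycle entry and S phase.

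Oestrogen response genes also stood at 20.0%, 16 of 80, but with fewer both-library or DMSO peaks, at 24 genes. Among genes with any Rb peak at the promoter, single-library peaks only made up 40% of this list, against 20.9% over all protein-coding genes. Of the 16, 9 had a member of replicate 1 alone, 5 of replicate 2 alone and 2 of each. Replicate 1 members lay at WFS1 (fold 5.71), SLC27A2 (5.65), CISH, an inhibitor of cytokine signalling (5.50), the receptor tyrosine kinase RET (4.48), SLC16A1 (4.35), the glucose transporter SLC2A1 (4.34), the ER corepressor NRIP1 (4.24), GATA3 (4.18) and CCND1. Replicate 2 members lay at CELSR1 (7.92), FOS (4.69), ADCY9 (4.00), KAZN (3.66) and the ubiquitin ligase SIAH2 (4.90 and 3.57). PEX11A had members at 3.95 in replicate 1 and 7.42 in replicate 2, 1350 bp apart, and NBL1 at 5.18 and 6.18, 47280 bp apart at separate starts. At a −log10 q of at least 5 the number was 6 of 80 (7.50%), beside 2.81% of all protein-coding genes.

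Luminal genes stood at 4 of 28 (14.3%). Among them, GRHL1, an epithelial transcription factor, had a replicate 1 member at 5.22 and GATA3, a luminal lineage factor, the member given above. CLDN7, a tight junction protein, had 4.62 in replicate 1 and 5.27 in replicate 2, 1479 bp apart. AP-1 and ATF genes stood at 5 of 28 (17.9%). Replicate 1 members lay at CREB3L1 (6.58), CREB1 (5.93) and MAFF, with 3 peaks from 4.06 to 6.58, and replicate 2 members at FOSB (4.93) and FOS. Antigen presentation genes stood at 2 of 27 (7.41%). TAP1, the peptide transporter, had 8.36 in a promoter shared with PSMB9 (replicate 1). CIITA, the MHC class II transactivator, had 4.99 (replicate 2). Among genes with any Rb peak at the promoter, single-library peaks only made up 33.3%, 23.8% and 16.7% of these lists in turn. Over all protein-coding genes that share was 20.9%. Members at a −log10 q of at least 5 left 1, 3 and 2 genes of these lists, and 2.81% of all protein-coding genes.

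Housekeeping and other large lists lay from near the share of all genes to above it. Respiratory chain genes stood at 17 of 84 (20.2%), proteasome subunits at 8 of 39 (20.5%), cytosolic ribosomal proteins at 11 of 85 (12.9%) and mitochondrial ribosomal proteins at 9 of 77 (11.7%). When only genes with any Rb peak were counted, mitochondrial ribosomal proteins were also near all genes, at 19.6% against 20.9%. By that count the other lists of this paragraph stood higher. Histone genes were at 53.3%, respiratory chain genes at 35.4% and proteasome subunits at 30.8%. Cytosolic ribosomal proteins were at 30.6%, zinc finger genes of chromosome 19 at 30.2% and solute carriers at 26.7%. Histone genes stood at 8 of 76 (10.5%), zinc finger genes of chromosome 19 at 26 of 246 (10.6%) and solute carriers at 39 of 367 (10.6%). Histone genes, zinc finger genes and ribosomal protein genes have similar copies, and whether reads were assigned to the wrong copy was not tested. Windows of repeated sequence, as counted above, made up 1.36% ± 0.182 of all promoter members. Among both-library promoter peaks they made up 0.913% ± 0.0502 (SD, n = 2). These shares were not taken for each gene list. Members at a −log10 q of at least 5 left 2 of 84 respiratory chain genes (2.38%), 1 proteasome gene (2.56%) and 0 cytosolic ribosomal protein genes. Over all protein-coding genes this limit left 552 of 1766, or 2.81% of all genes. Weak calls thus made up most of the count in these lists and over all genes alike.

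Tissue-restricted lists were nearly empty. Single-library peaks only were found at 1 of 39 HOX genes (HOXB7), 4 of 95 potassium channels (4.21%), 1 of 390 olfactory receptors (OR2S2) and 0 of 53 clustered protocadherins, which allows up to 5.66% at a limit of 3 counts. HOX genes had 1 gene with a both-library or DMSO peak, and olfactory receptors and protocadherins had 0.

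Some genes had promoter members of each library. The genes with the highest lower fold were NR4A2, a nuclear receptor, and the divergent pair ANKS1A and TAF11, a TFIID subunit. NR4A2 had a replicate 1 peak at 6.91 and replicate 2 peaks at 7.75 and 5.60 over its several starts, the nearest pair 609 bp apart. ANKS1A/TAF11 had replicate 1 peaks at 8.58 and 4.20 and a replicate 2 peak at 6.44 between them, 609 and 23 bp away. The ANKS1A/TAF11 peak at 8.58 is the one whose sequence with an E2F motif and a CCAAT box is printed above.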

How the data were processed

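CUT&RUN was measured in 7 libraries of ZR-75-1 cells, 6 with the Rb antibody and 1 with IgG2a, grouped by their sample titles. Reads had been trimmed with BBDuk and aligned to hg38 by Bowtie2 2.3.4.1. The authors then ran MACS2 2.2.7.1 on every library separately, using paired-end fragments, a q cutoff of 0.05 and, by the methods, matched IgG. The control for the IgG2a list itself is not given in the sources used here. The submitters' processing notes also name deepTools 3.5.0 and DiffBind. The deposited lists hold a score, the authors' fold enrichment (a ratio), −log10 p and −log10 q, and the summit offset, per peak. They hold no read totals.

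Members and lists were chosen with earlier results of these data known. The lists were written from general knowledge and are not published gene sets. Peaks were annotated with GENCODE 44. Overlap needed 1 bp. Summit pileup and background were solved from the deposited fold and p, a step tested on simulated data. Windows of 100 bp on either side of the summit gave GC content, CpG ratio, 12 motifs and the share of repeated 31-base words. Class values per library were compared by an exact paired permutation test over 2 libraries, two-sided. The library pairs the classes because both classes come from the same library. With library pairing ignored the smallest p is 0.333. Peaks are not replicates, and no set test was run. Peaks outside chromosomes 1 to 22 and X were left out.

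Named members were the 5 promoter and 3 non-promoter peaks of highest fold per library, those at genes of 7 lists with single-library peaks only, those closest to the 1 bp edge, those overlapping an RB1 KO peak, and the 3 genes with a member of each library at the highest lower fold. Some members named by this rule are not reported here. Genes of other lists and the sequences were chosen after their values were seen. The analysis used Python 3.11.15 with numpy 2.4.6, pandas 2.3.3, scipy 1.17.1, pysam 0.24.0, numba 0.67.0 and matplotlib 3.10.9.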

Additional observations from a re-analysis of the deposited data

Results flagged for a closer look

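Peaks outside chromosomes 1 to 22 and X were not part of the comparisons. Among them a mean of 33 peaks per library was called in a single palbociclib library (32 in replicate 1 and 34 in replicate 2, of 85 each), above the mean of 19 called in a single DMSO library (27 of 74 and 11 of 63). Gene annotation of these sequences was not used here, and the difference was not tested.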

How the results depend on the processing

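The number of single-library peaks was 5019 when a 50% reciprocal overlap was required. It was 1835 with both lists at a −log10 q of at least 5, peaks matched only below that cut included. It was 738 with members alone at that level. In the same order the promoter share of members was 78.4%, 83.4% and 79.6%. The share near a peak called in both libraries, DMSO-overlapping ones included, was 12.2%, 6.38% and 11.2%. With gaps of up to 500 bp counted as overlap the last pair of shares was 69.1% and 7.04%. With both lists at a fold of at least 5 they were 80.8% and 6.88%. The share near was 14.3% with lists of equal length, 8.78% at 500 bp and 22.2% at 10000 bp. The promoter share was 72.6% within 1000 bp of a start and 81.3% with the starts of all genes. Genes with single-library peaks only numbered 552 with members at a −log10 q of at least 5. All alternatives run kept the direction of the mean promoter, GC, CpG and E2F differences, which ranged from −19.2 to −6.50 points, −7.99 to −0.473 points, −0.246 to −0.0353 and −3.37 to −0.335 points. The unpaired test with no replicate block gave the same promoter difference, −17.7 points, at an exact permutation p = 0.333, its smallest possible. With or without the block no difference could pass a threshold. Leaving out either DMSO library kept the direction of each difference. The classes need both palbociclib libraries, so neither could be left out in setting them. Taken alone, each palbociclib library gave differences of the same direction, as reported above. Members stood on a median of 10 summit fragments and the lowest call on 5, so at this depth absence from the other list does not show absence of Rb.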
